A study of Oryza sativa Japonica Group with 15 samples.

Results

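Aquaporins are the membrane channels through which water, and for some of them small solutes such as silicic acid or ammonia, crosses plant membranes. The 10 genes described here code for rice root aquaporins of the plasma membrane intrinsic protein (PIP) and tonoplast intrinsic protein (TIP) classes and were chosen by identifier. They are PIP1-1 (Os02g0666200), PIP1-2 (Os04g0559700), PIP1-3 (Os02g0823100), PIP2-1 (Os07g0448800), PIP2-2 (Os02g0629200), PIP2-3 (Os04g0521100), PIP2-5 (Os07g0448400), TIP1-1 (Os03g0146100), TIP2-1 (Os02g0658100) and TIP2-2 (Os06g0336200). They are 10 of the 36747 features measured, and all 10 were among the 18316 features with enough reads to be tested. The names are written with a hyphen, a spelling that RefSeq lists for each of them beside the form with a semicolon.

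The study asked how rice roots differ after the leaves are sprayed with compounds known as inducers of plant resistance. Seedlings of the japonica cultivar Kitaake were moved to tubes 5 days after germination, and the spray solution contained 0.1% Tween 20. Mock plants, plants given 3.5 mM R,S-beta-aminobutyric acid (BABA), plants given 250 µM acibenzolar-S-methyl (ASM, titled BTH in the labels) and plants given 300 µM piperonylic acid (PA1x) were sprayed once, on day 13 after transplanting, while the PA2x plants received 300 µM piperonylic acid on days 7 and 13. Roots were taken on day 14, 4 plants were pooled per sample, and each of the 5 groups had 3 samples. The labels do not say whether the pools of a group were grown apart, so the p-values measure the spread between these pools. ASM is a synthetic plant activator that acts in the salicylic acid pathway, BABA is a non-protein amino acid that primes defence, and piperonylic acid is known as an inhibitor of cinnamate 4-hydroxylase in the phenylpropanoid pathway. Compound, dose and, for PA2x, the spray schedule differ together, and the labels list no mock sprayed on days 7 and 13.

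PIP proteins carry water across the plasma membrane, and TIP proteins carry it between the cytosol and the vacuole. PIP2 proteins form active water channels on their own in expression systems, whereas PIP1 proteins usually need a PIP2 partner to reach the plasma membrane. In roots, both classes contribute to the path of water through living cells towards the xylem, and rice PIP2-3, PIP2-5 and TIP2-1 are known for transcripts found mainly in roots.

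The values are 3′ reads per gene from QuantSeq libraries, divided by the authors by 1 size factor per library and called normalised reads here. They are not divided by gene length. Tests compare levels between groups only, and levels of different genes are set side by side or summed only as a description of reads. The libraries held between 4130194 and 9480830 reads, and the read count of a listed gene in a library ran from 38 for PIP2-5 to 39538 for PIP1-3. Among 6 markers of root tissue all were detected in every group, and their summed level was 37955 to 40878 normalised reads for mock, 33361 to 39274 for BABA, 34411 to 41518 for PA1x, 21628 to 35502 for ASM and 23666 to 34657 for PA2x. The ammonium transporter AMT1;2 was the weakest of them, at 0 to 8.99 normalised reads. The sum was lowest in ASM replicates 2 and 3, at 21628 and 22322, and in PA2x replicate 2, at 23666, while ASM replicate 1 was at 35502. Among 11 markers of green shoot tissue the summed level was 15.9 to 360 normalised reads, highest in mock replicate 2 and PA1x replicate 2, and LHCB3 was at 0 in BABA and PA2x.

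Most of these aquaporin genes were higher in roots of PA1x plants than in roots of ASM plants. In the direct comparison 6 of the 10 passed the test, by 1.32-fold to 1.60-fold, against 15.7% of all features. They came from the PIP1, the PIP2 and the TIP class: PIP1-1, PIP2-1, PIP2-2, PIP2-3, TIP1-1 and TIP2-2. Against mock none of the 10 passed by limma or edgeR with any of the sprays. In these comparisons limma called 0.251% to 4.53% of all features and edgeR 0.377% to 4.92%. DESeq2 called 2 for ASM, against 5.7% of all features, and 1 for PA1x, against 4.55%. By log2 difference 8 of 10 were below mock in ASM and 8 of 10 above mock in PA1x. In the account of each comparison, counts of the 10 genes that passed a test, or whose groups did not overlap, stand beside the share of all 18316 tested features that did so in either direction, written as a percentage of all features. Fewer cells of a type and less RNA per cell cannot be told apart in whole roots.

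Of the PIP1 genes, PIP1-1 was at 2616, 2434 and 3482 normalised reads in mock replicates 1, 2 and 3, 3096, 3193 and 3230.2 in BABA, 2491, 2409 and 2253 in ASM, 3263, 3359 and 4089 in PA1x and 3076, 3132 and 3259 in PA2x. Every PA1x library lay above every ASM, BABA and PA2x library, and the mock libraries overlapped both ASM and PA1x. PIP1-2 was at 7456, 9189.8 and 8078 in mock, 7133, 7611 and 7801 in BABA, 7359, 6780.2 and 6035 in ASM, 6830.4, 8223 and 8409.8 in PA1x and 6780.5, 5676 and 6972 in PA2x. Both the ASM and the PA2x libraries lay below all mock libraries, and the BABA and PA1x libraries overlapped mock. PIP1-3, a gene RefSeq also lists under the older water channel name RWC3, was at 23617, 24324 and 25801 in mock, 18385, 20840.2 and 22677 in BABA, 26737, 25813 and 23632 in ASM, 25391, 26811 and 28415 in PA1x and 17244, 17194 and 26040 in PA2x. Its BABA libraries lay below mock, and its PA2x libraries were split, with replicates 1 and 2 below all other libraries and replicate 3 above all mock libraries.

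Of the PIP2 genes, PIP2-1 was at 4178, 4569 and 4357 normalised reads in mock, 3953, 3640.2 and 3837 in BABA, 3358, 3500.3 and 3469 in ASM, 4348, 4313 and 5031 in PA1x and 4098, 3846 and 3937 in PA2x. The ASM libraries were the lowest of all, without overlap with any other group. PIP2-2 was at 2034, 2108 and 2386 in mock, 1836, 2137 and 2216 in BABA, 1790.0, 1513 and 1519.7 in ASM, 2144, 2348 and 2619 in PA1x and 1917, 1553 and 2069 in PA2x. Its ASM libraries lay below all mock, BABA and PA1x libraries and overlapped PA2x. PIP2-3, one of the mainly root-expressed water channels, was at 7306, 8705 and 8754 in mock, 7648, 7937 and 8378 in BABA, 7988, 7321 and 6882 in ASM, 9918, 10794 and 11281 in PA1x and 7322, 7182 and 9320.0 in PA2x. All PA1x libraries lay above every other library for PIP2-3, and the other groups overlapped each other.

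PIP2-5, another mainly root-expressed gene, had few reads, at 78.2, 188 and 114 normalised reads in mock, 115, 52 and 90.0 in BABA, 79.6, 145 and 156 in ASM, 156, 139 and 159 in PA1x and 59.1, 97.6 and 99.3 in PA2x. The PA1x libraries lay close together and above all BABA and PA2x libraries, and mock and ASM each spread across that gap. The coefficient of variation between the 3 samples of a group was 44.0% in mock, 36.9% in BABA, 32.6% in ASM, 26.7% in PA2x and 7.07% in PA1x. PIP2-4, PIP2-5 and PIP2-1 stand next to each other, in this order, among the protein-coding genes of chromosome 7 in RefSeq. The sources used here do not say how reads matching several genes were counted, and the split of reads within this cluster is uncertain.

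Of the TIP genes, TIP1-1, a gamma-type tonoplast channel, was at 3871, 4222 and 4374 normalised reads in mock, 4818, 4845 and 4354 in BABA, 3809, 3323 and 2975 in ASM, 4833, 5543 and 5481 in PA1x and 5274, 4691 and 4804 in PA2x. The ASM libraries lay below every other library, and the PA1x and PA2x libraries lay above all mock libraries. TIP2-2, a delta-type channel of the subclass whose Arabidopsis members also carry ammonia, was at 3988, 3356 and 4141 in mock, 4199.7, 4289.8 and 3913 in BABA, 3487, 2810.1 and 2404 in ASM, 4098, 4595 and 5151 in PA1x and 4317, 4213 and 4537 in PA2x. Its ASM libraries lay below those of BABA, PA1x and PA2x, and ASM replicate 1 overlapped mock. TIP2-1, the other delta-type channel, was at 1698, 1423 and 2172 in mock, 1539, 1745 and 1833 in BABA, 1508, 1141 and 1124 in ASM, 1297, 1458 and 1904 in PA1x and 1590.5, 1486 and 1842 in PA2x. Only ASM and BABA were without overlap for TIP2-1, with ASM the lower.

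**Figure D1:**
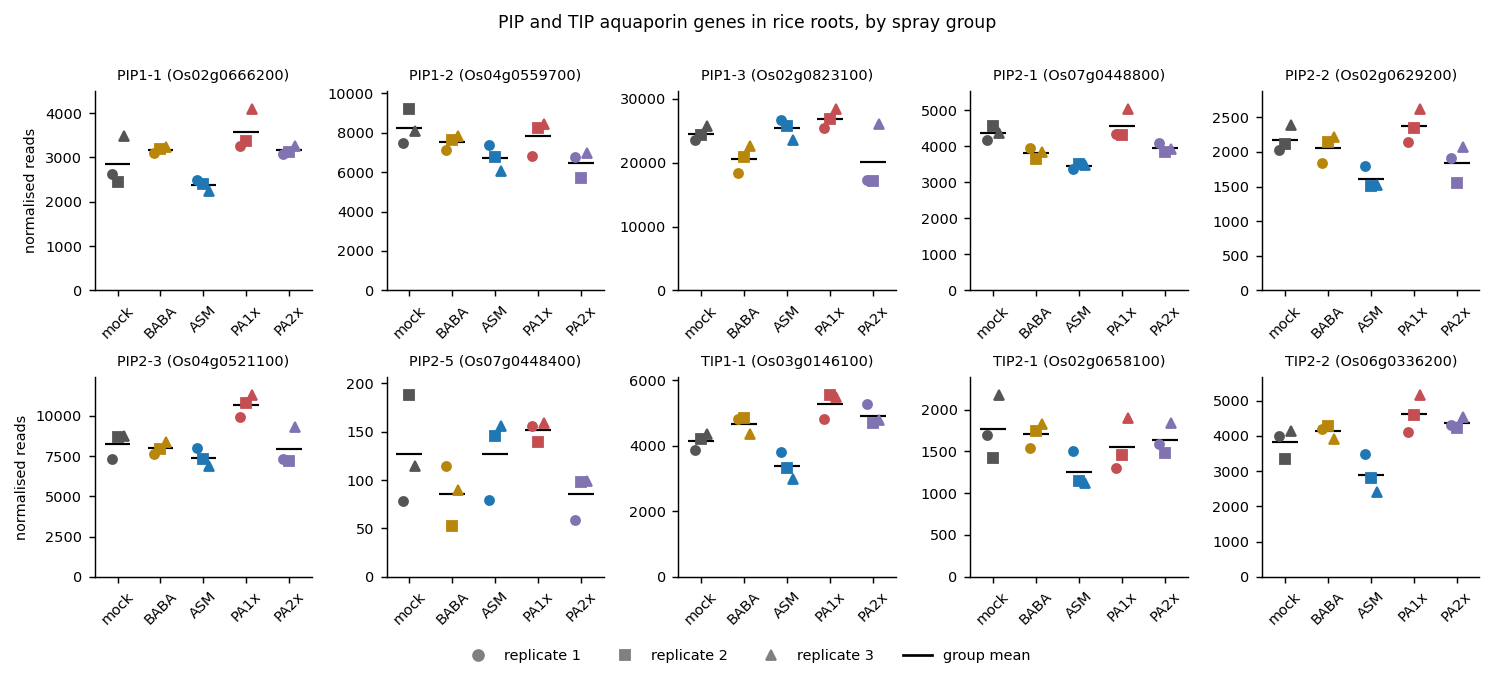
Normalised reads (vertical axes, each from 0) of the 10 PIP and TIP genes in every library, by spray group, with marker shapes for replicates 1, 2 and 3 and a line at the group mean. PA1x points are the highest for PIP2-3, and ASM points the lowest for PIP2-1 and TIP1-1, without overlap with another group.

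By group mean, PA1x was the highest of the 5 groups for 8 of the 10 genes and mock for the other 2, PIP1-2 and TIP2-1. ASM was the lowest for 7 genes, and PA2x for PIP1-2, PIP1-3 and PIP2-5. The highest group mean exceeded the lowest by 1.27-fold for PIP1-2 and up to 1.78-fold for PIP2-5. The order ran PA1x, PA2x, BABA, mock, ASM for both TIP1-1 and TIP2-2, and PA1x, mock, BABA, PA2x, ASM for both PIP2-2 and PIP2-3. For PIP1-1 it ran PA1x, BABA, PA2x, mock, ASM, and for PIP2-1 PA1x, mock, PA2x, BABA, ASM. Between groups next to each other in these orders no gene passed the test in limma. In the moderated F test over the 5 groups, 5 of the 10 genes varied, against 12.2% of all features: TIP1-1 (limma adjusted p = 0.00484), TIP2-2 (0.0138), PIP1-1 (0.0374), PIP2-2 (0.0376) and PIP2-1 (0.0458). PIP2-1 lost this call with TMM scaling (0.0508), edgeR (0.0574), a replicate block (0.0685) and no filter on low values (0.126). That count of 5 was 1 without ASM replicate 2 or 3, 2 without mock replicate 1, BABA replicate 2, PA2x replicate 1 or any 1 PA1x library, and 3 without mock replicate 3, BABA replicate 1 or PA2x replicate 2.

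Summed over the 10 genes, aquaporin reads made up 0.924 ± 0.092% of a library in mock, 0.865 ± 0.097% in BABA, 0.830 ± 0.060% in ASM, 1.12 ± 0.087% in PA1x and 0.815 ± 0.131% in PA2x (mean ± SD, n = 3). As shares of reads, the PA1x libraries, at 1.05 to 1.22%, lay above every other library. This did not hold for the sum of the 10 genes in normalised reads. There PA1x replicate 1, at 62279, lay below mock replicate 3 (63659) and PA2x replicate 3 (62879). The classes did not follow the same order. The mean PIP1 share was lowest in PA2x, at 0.446 ± 0.097%. It was 0.486 ± 0.069% in BABA, 0.525 ± 0.039% in ASM, 0.546 ± 0.051% in mock and 0.636 ± 0.046% in PA1x. The PA2x libraries were split, at 0.390, 0.389 and 0.557%. PIP1-3 weighs most on this share, with a mean of 23528 normalised reads against 7356 for PIP1-2 and 3025 for PIP1-1. The PIP2 share was 0.191 ± 0.0090% in ASM, 0.207 ± 0.026% in PA2x, 0.216 ± 0.023% in BABA, 0.228 ± 0.024% in mock and 0.295 ± 0.022% in PA1x. The TIP share was lowest in ASM, at 0.0983 to 0.128%, followed by mock with 0.132 to 0.173%, PA2x with 0.155 to 0.172%, BABA with 0.158 to 0.169% and PA1x with 0.172 to 0.211%. ASM lay below all other libraries in the TIP share and overlapped mock, BABA and PA2x in the PIP1 share. In the PIP1 and TIP shares 1 mock library overlapped PA1x. These shares are descriptions of the libraries, and no test was made on them.

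**Figure D2:**
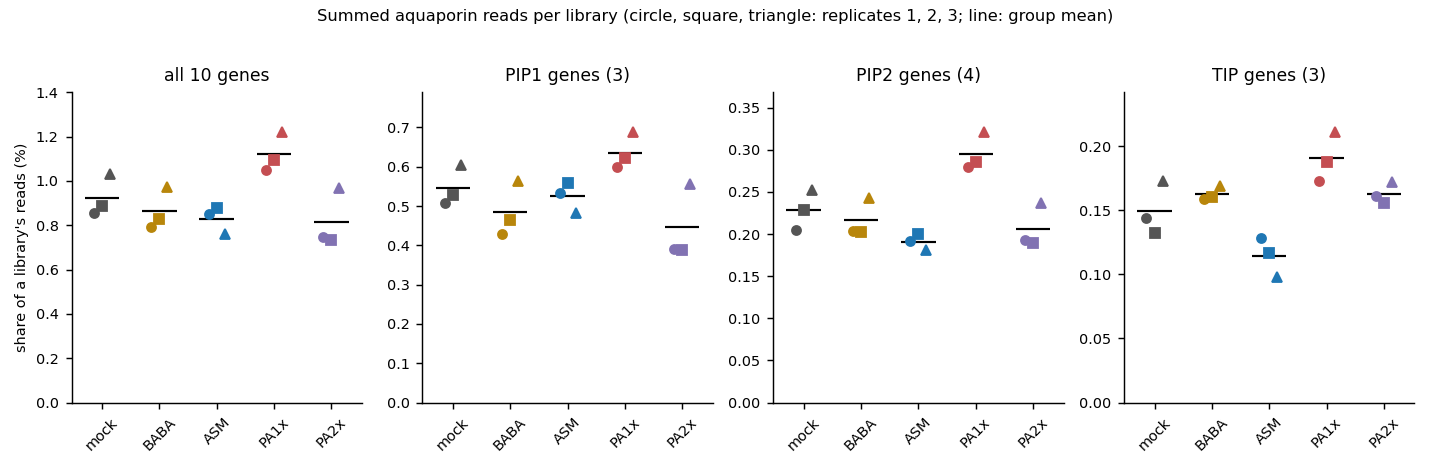
Reads of the 10 genes together and of the PIP1, PIP2 and TIP genes as a percentage of each library's reads (vertical axes, each from 0), by group, with a line at the mean of 3 libraries. The PA1x libraries stand above all others for the 10 genes together, at 1.05 to 1.22%, and for the PIP2 genes, and the ASM libraries lie lowest in the TIP panel. In normalised reads the sum of the 10 genes in PA1x overlapped mock and PA2x.

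PA1x and ASM are both single sprays on day 13 and differ in compound and dose, 300 against 250 µM. The comparison gave limma adjusted p under 0.05 for 6 of the 10 genes, all higher in PA1x, against 15.7% of all features in either direction. The same 6 had groups that did not overlap, against 34.9% of all features. TIP1-1 was 1.57-fold higher in PA1x (log2 difference 0.65 ± 0.11 SE, limma adjusted p = 0.000673), and TIP2-2 was 1.60-fold higher (0.68 ± 0.13, limma adjusted p = 0.00204). Both are water channels of the vacuolar membrane, and the third TIP gene, TIP2-1, did not pass, at 0.30 with an interval of -0.06 to 0.66. PIP1-1 was 1.49-fold higher (0.58 ± 0.13, limma adjusted p = 0.00453). PIP2-2 was 1.47-fold higher (0.56 ± 0.13, limma adjusted p = 0.00562), PIP2-3 1.44-fold (0.53 ± 0.13, limma adjusted p = 0.00978) and PIP2-1 1.32-fold (0.40 ± 0.10, limma adjusted p = 0.0079). The other PIP genes did not pass, with log2 differences of 0.22 for PIP1-2 (interval -0.06 to 0.50), 0.08 for PIP1-3 (-0.28 to 0.44) and 0.31 for PIP2-5 (-0.39 to 1.02). All 10 differences were positive under each scaling tried, with a median of 0.47 against 0.02 over all features.

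Whichever of the 6 libraries was left out, TIP1-1, TIP2-2, PIP1-1 and PIP2-2 still passed. PIP2-1 did not pass without PA1x replicate 3 (limma adjusted p = 0.0595), nor did PIP2-3 without PA1x replicate 3 (0.0517) or ASM replicate 3 (0.0518). The summed root markers were 34411 to 41518 normalised reads in PA1x and 21628 to 35502 in ASM, and their part in the result was not tested. ASM replicate 1 had a root marker sum of 35502, within the PA1x range, but its single markers went both ways. RCc3 (7787), Lsi2 (4840) and Lsi1 (4732), which is itself the aquaporin gene NIP2-1, were below every PA1x library. AMT1;2 (2.98) was too, but it had few reads, at 0 to 8.99 normalised reads over all libraries. IRT1 (11709) and NAR2.1 (6432) were above every PA1x library. The 6 aquaporin genes that passed had groups without overlap, so in ASM replicate 1 too they were below every PA1x library. There TIP1-1 was at 3809 and PIP2-1 at 3358 normalised reads.

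**Figure D3:**
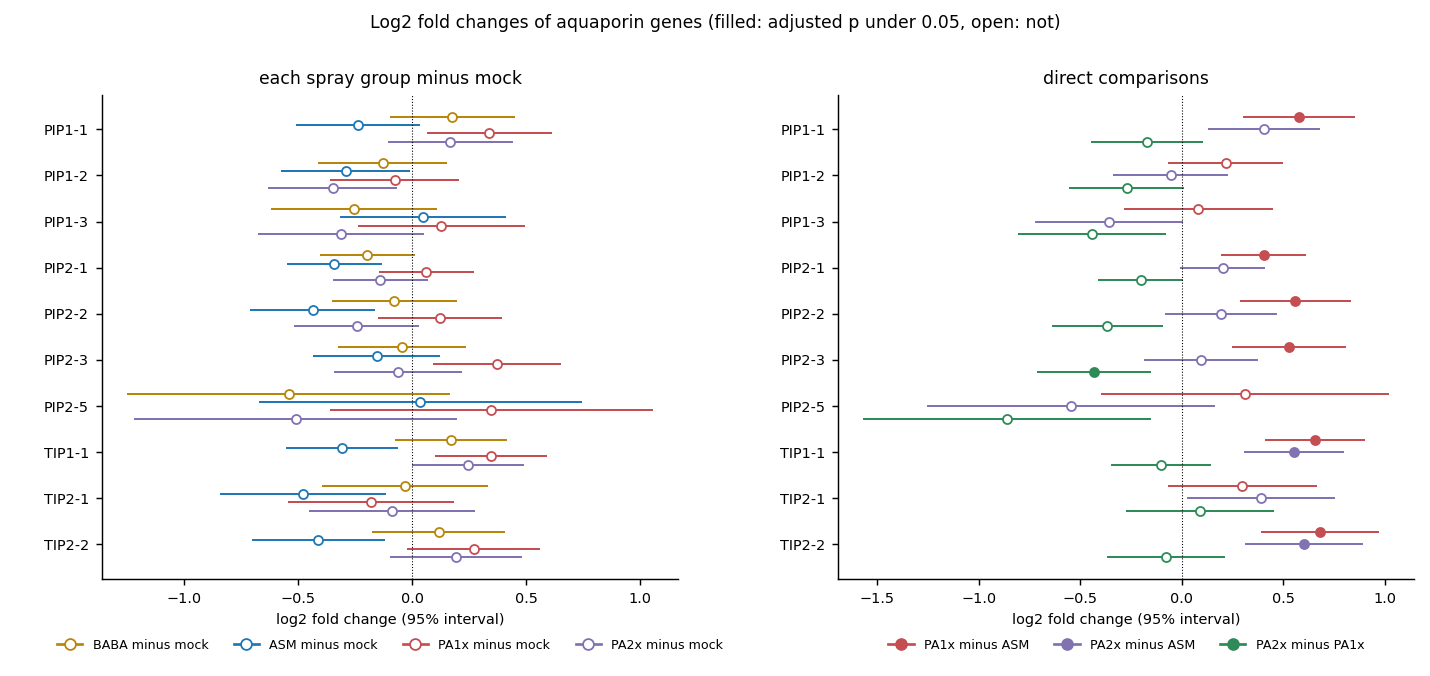
Log2 fold changes with 95% intervals for the 10 genes, for each spray group minus mock on the left and for PA1x minus ASM, PA2x minus ASM and PA2x minus PA1x on the right. Filled points passed the limma test at an adjusted p of 0.05: none on the left, and on the right 6 in PA1x minus ASM, 2 in PA2x minus ASM and 1 in PA2x minus PA1x.

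Against mock, the ASM roots had the lower level of 8 of the 10 genes. By limma 0 of 10 passed, against 4.53% of all features, while 6 had an unadjusted p under 0.05, against 16.8% of all features. edgeR also called 0, against 4.92% of all features, and DESeq2 called 2, PIP2-1 and PIP2-2, against 5.7%. PIP2-1 was closest to the threshold, at 0.789 of the mock level (log2 difference -0.34 ± 0.10, limma adjusted p = 0.0549). PIP2-2 stood at 0.738 (-0.44 ± 0.13, limma adjusted p = 0.063), and TIP2-2 at 0.752 (-0.41 ± 0.13, limma adjusted p = 0.107). The ASM and mock libraries did not overlap for PIP1-2, PIP2-1, PIP2-2 and TIP1-1, 4 of 10, against 19.8% of all features. PIP1-3 and PIP2-5 had log2 differences of 0.05 and 0.04, and the median over the 10 genes was -0.30 against -0.01 over all features. ASM replicate 1 was the highest of its group for 8 of the 10 genes and also had the highest root marker sum of the group, 35502 normalised reads against 37955 to 40878 in mock, and the part of these markers in the result was not tested. Without it, PIP2-2 and TIP2-2 passed (limma adjusted p = 0.0407 and 0.0212).

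In PA1x, 8 of 10 genes had log2 differences above 0 against mock, with a median of 0.20 against -0.0030 over all features. Limma called 0 of 10, against 3.53% of all features, and 3 had an unadjusted p under 0.05, against 12.5%. edgeR called 0, against 3.89% of all features, and DESeq2 called 1, TIP1-1, against 4.55%. TIP1-1 had a log2 difference of 0.35 ± 0.11 (limma adjusted p = 0.14), PIP2-3 of 0.37 ± 0.13 (0.174) and PIP1-1 of 0.34 ± 0.13 (0.22). PIP2-3 and TIP1-1 had groups that did not overlap, 2 of 10, against 21.1% of all features. The differences below 0 were those of PIP1-2, at -0.08, which turns to 0.045 when libraries are scaled to equal totals, and TIP2-1, at -0.18. That scaling moved the median of all features by 0.12 in this comparison, and 8 of the 10 genes lay above that median under both scalings.

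In PA2x roots, 7 of 10 genes had log2 differences below 0 against mock. By limma 0 of 10 genes passed, against 0.928% of all features, and 2 had an unadjusted p under 0.05, against 11.8%. edgeR called 0, against 0.901% of all features, and DESeq2 0, against 2.06%. The vacuolar genes TIP1-1 and TIP2-2 lay above mock without overlap, at log2 differences of 0.24 and 0.19, and PIP1-2 and PIP2-1 lay below it without overlap, at -0.35 and -0.14. These 4 of 10 compare with 15.1% of all features without overlap. In the direct comparison with PA1x, 9 of 10 genes, all but TIP2-1, had log2 differences below 0 in PA2x, and PIP2-3 passed, at 0.74 of the PA1x level (log2 difference -0.43 ± 0.13, limma adjusted p = 0.0403), 1 of 10 against 11.3% of all features. The groups did not overlap for PIP1-1, PIP2-1, PIP2-2, PIP2-3 and PIP2-5, 5 of 10 against 28.2% of all features. TIP1-1 and TIP2-2 had differences of -0.10 (interval -0.34 to 0.14) and -0.08 (-0.36 to 0.21). PIP2-3 lost its call without 5 of the 6 libraries in turn, all but PA2x replicate 3 (limma adjusted p = 0.0624 to 0.165), and without BABA replicate 2 (0.0525) or ASM replicate 2 (0.0513). In a fit of the PA1x and PA2x libraries alone PIP2-3 did not pass (0.074) and PIP2-5 did (0.0194). Scaling to equal totals, which shifted the median feature by -0.15, brought the calls to 5 and all 10 differences below 0. The PA2x root marker sums were 34395, 23666 and 34657 normalised reads in replicates 1, 2 and 3. Only replicate 2 lay clearly below the lowest PA1x library, at 34411, and replicate 1 was just under it. The part of these markers in the result was not tested.

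Set against ASM, the PA2x roots had higher levels of the tonoplast channel genes TIP1-1 and TIP2-2. TIP1-1 was 1.47-fold higher (0.55 ± 0.11, limma adjusted p = 0.0224) and TIP2-2 1.52-fold (0.60 ± 0.13, limma adjusted p = 0.0351), 2 of 10 against 1.44% of all features. PIP1-1 and PIP2-1 also lay above ASM without overlap, so that 4 of 10 genes did, against 14.6% of all features, and PIP1-3 had a difference of -0.36. The TIP1-1 call was lost without ASM replicate 2 or 3 or PA2x replicate 1 or 2 (limma adjusted p = 0.0565 to 0.124). The TIP2-2 call was lost without ASM replicate 2 or 3 or any 1 PA2x library (0.0889 to 0.185), and also without mock replicate 1 (0.0546) or PA1x replicate 2 (0.0568). In a fit of these 6 libraries alone neither passed (0.202 and 0.212).

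BABA roots differed from mock by -0.54 for PIP2-5 (interval -1.25 to 0.16) to 0.18 for PIP1-1 on the log2 scale, with a median of -0.06. Limma called 0 of 10, against 0.251% of all features, and 0 had an unadjusted p under 0.05, against 10.3%. edgeR called 0, against 0.377% of all features, and DESeq2 0, against 1.09%. PIP1-3 and PIP2-1 lay below mock without overlap, 2 of 10 against 14.9% of all features. Between PA1x and BABA, limma called 0 of 10, against 9.75% of all features, and 4 had an unadjusted p under 0.05, against 20.7%. edgeR called 0, against 9.79% of all features, and DESeq2 2, against 9.78%. PIP2-3 was closest, at 0.42 ± 0.13 (limma adjusted p = 0.0557), and 5 of 10 genes lay higher in PA1x without overlap, against 27.8% of all features. Between ASM and BABA, limma called 0 of 10, against 0.3% of all features, and 5 had an unadjusted p under 0.05, against 10.7%. edgeR called 0, against 0.333% of all features, and DESeq2 2, against 0.955%. The ASM level of TIP2-2 was 0.694 of that in BABA (limma adjusted p = 0.119) and of TIP1-1 0.718 (0.0952), and 7 of 10 genes had no overlap, 6 of them lower in ASM, against 13.3% of all features. Between PA2x and BABA, 0 of 10 passed by limma, edgeR or DESeq2, which called 0%, 0% and 0.126% of all features, and 0 had an unadjusted p under 0.05, against 7.16%. PIP1-2 was the 1 gene of 10 without overlap there, against 10.5% of all features.

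The rest of the rice aquaporin family that was listed comprises 23 genes, of which 11 had enough reads to be tested. Between PA1x and ASM, 6 of these 11 passed, 5 of them higher in PA1x, against 15.7% of all features. NIP2-1, the root silicon influx channel Lsi1, was at 7320.2, 8409 and 8327 normalised reads in PA1x and 4732, 4121 and 4159 in ASM, with 7057, 7274 and 6274 in mock, 5553, 5386 and 4932 in BABA and 5202, 3778 and 5465 in PA2x. All PA1x libraries lay above every other library, and it was 1.85-fold higher in PA1x than in ASM (0.89 ± 0.14, limma adjusted p = 0.000234). It was also lower in ASM than in mock (-0.66 ± 0.14, limma adjusted p = 0.0102), a call lost without mock replicate 1 (0.0565) or ASM replicate 3 (0.0519). NIP2-1 was lower in PA2x than in PA1x (-0.75 ± 0.14, limma adjusted p = 0.00141) and higher in PA1x than in BABA (0.60 ± 0.14, limma adjusted p = 0.00867). Lsi1 is itself 1 of the 6 root markers summed above.

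NIP2-2, the silicon channel Lsi6 that unloads silicon from the xylem, was at 412, 289 and 265 in ASM, 527, 389.9 and 666 in mock and 561, 594 and 656 in PA1x. It was higher in PA1x than in ASM (0.93 ± 0.18, limma adjusted p = 0.00159), lower in ASM than in mock (-0.70 ± 0.18, limma adjusted p = 0.0346) and higher in PA2x than in ASM (0.78 ± 0.18, limma adjusted p = 0.0388). The last 2 calls were lost without several of the single libraries: mock replicates 1 and 3 and ASM replicates 2 and 3 for the comparison with mock (0.118 to 0.164), and ASM replicates 2 and 3 and each PA2x library for the other (0.0574 to 0.187). The PA2x minus ASM call of NIP2-2 was also lost without some libraries of the other groups and with equal totals (0.0589). In fits of the compared libraries alone neither call of NIP2-2 passed (0.156 against mock and 0.146 for PA2x minus ASM).

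PIP2-4, the chromosome 7 neighbour of PIP2-5, was at 3288, 3349 and 3376 normalised reads in PA1x, 2688, 3353 and 2723 in mock, 2172, 1879 and 2008 in BABA, 2064, 2528 and 2419.7 in ASM and 1828, 2361 and 2046 in PA2x. Its 3 PA1x libraries were within 3288 to 3376, with mock replicate 2 beside them and all BABA, ASM and PA2x libraries below. It was higher in PA1x than in ASM (0.52 ± 0.12, limma adjusted p = 0.00691) and than in BABA (0.73 ± 0.12, limma adjusted p = 0.000701), and lower in PA2x than in PA1x (-0.69 ± 0.12, limma adjusted p = 0.00102), whichever library was left out. PIP2-6 (0.74 ± 0.21, limma adjusted p = 0.0254) and the boron channel NIP3-1 (0.41 ± 0.13, limma adjusted p = 0.0402) were higher in PA1x than in ASM, and NIP1-1 was lower (-1.54 ± 0.47, limma adjusted p = 0.0352). Those calls were each lost without ASM replicate 2 or 3 or PA1x replicate 3, among others, with adjusted p up to 0.13 for PIP2-6, 0.139 for NIP3-1 and 0.136 for NIP1-1. TIP4-1 was higher in PA1x than in BABA (0.53 ± 0.13, limma adjusted p = 0.0163), a call lost without BABA replicate 2 or 3 or PA1x replicate 1 or 3 (0.056 to 0.0963). Over the 5 groups, PIP2-4, NIP2-1 and NIP2-2 passed the F test, 3 of 11 against 12.2% of all features. The median log2 difference of the 11 genes was 0.41 between PA1x and ASM and -0.14 between ASM and mock.

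**Figure D4:**
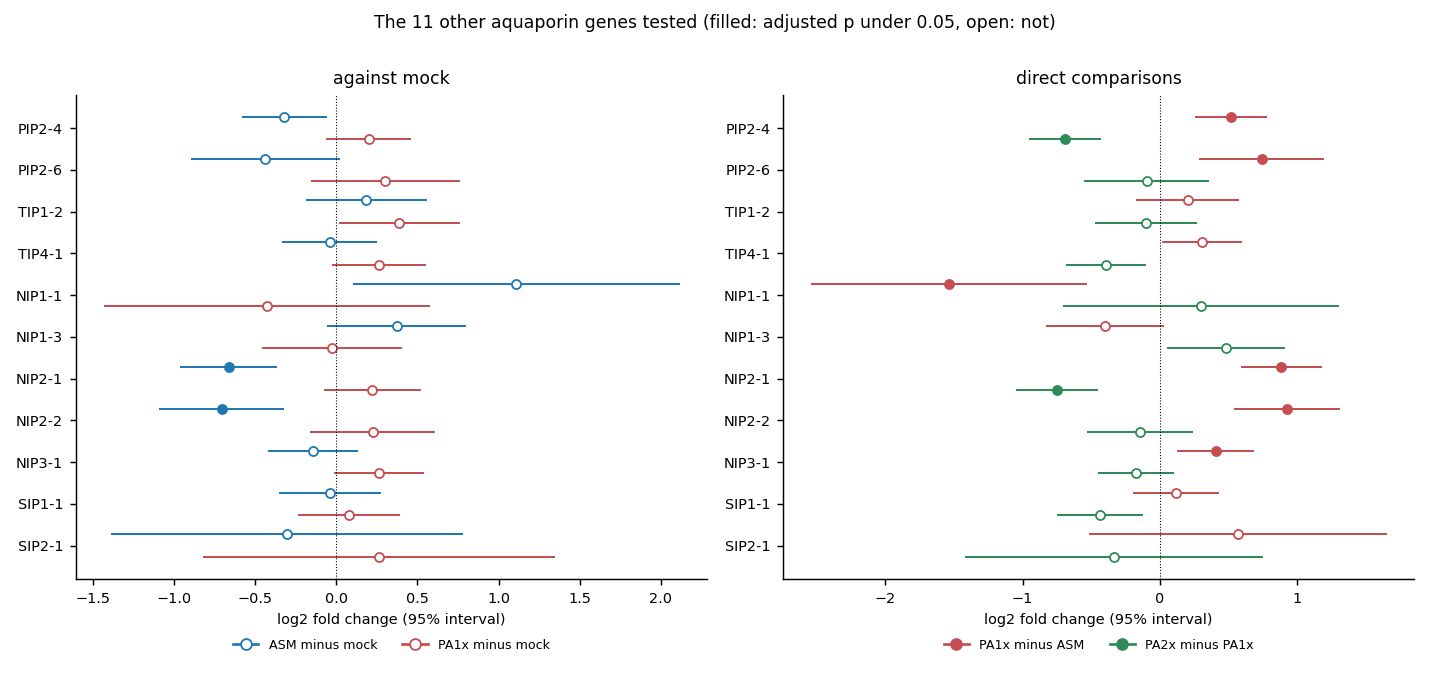
Log2 fold changes with 95% intervals of the 11 other aquaporin genes tested, against mock on the left and between treated groups on the right. Filled points passed the limma test at an adjusted p of 0.05, among them NIP2-1 and NIP2-2 below mock in ASM and 6 genes in PA1x minus ASM.

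Within a group the 10 genes tended to be high or low in the same library. PA1x replicate 3 was the highest of its group for 9 genes and PA1x replicate 1 the lowest for 8. PA2x replicate 3 was the highest for 8 and PA2x replicate 2 the lowest for 8, mock replicate 3 was the highest for 7 and mock replicate 1 the lowest for 7. ASM replicate 1 was the highest for 8 and ASM replicate 3 the lowest for 7. As a description over 15 libraries that share their group and their size factor between genes, the 45 pairs of genes had a median Pearson correlation of log2 levels of 0.53. After group means were removed the median was 0.40. The pairs most alike were TIP1-1 with TIP2-2 (0.93), PIP1-1 with TIP2-2 (0.89), PIP1-1 with TIP1-1 (0.85) and PIP2-2 with PIP2-3 (0.81). PIP1-1 was closer to these TIP genes than to the other PIP1 genes, with 0.26 for PIP1-2 and 0.02 for PIP1-3. PIP1-3 was at -0.17 with TIP1-1 and -0.09 with TIP2-2, and PIP2-5 with TIP2-1 was the lowest pair, at -0.41. PIP2-5 had the fewest reads of the 10 genes, so counting error weighs most on its correlations.

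**Figure D5:**
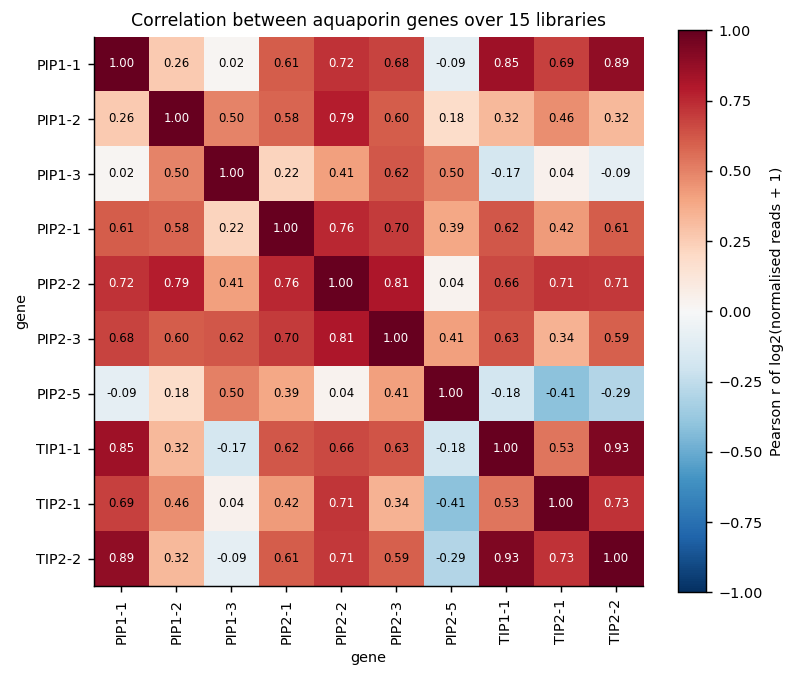
Pearson correlation of log2(normalised reads + 1) between each pair of the 10 genes over 15 libraries, from -1 (blue) to 1 (red). PIP1-1, TIP1-1 and TIP2-2 are alike at 0.85 to 0.93, and PIP1-3 and PIP2-5 have values near or below 0 with the TIP genes.

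The mean of the 10 standardised levels, compared over the 15 libraries with the 14016 features that had a mean of at least 20 and were not on either aquaporin list, was most like Os07g0469200 and Os02g0236800, both with a Pearson correlation of 0.93. Os07g0469200 averaged 34.7 normalised reads in ASM and 69.7 in PA1x, and Os02g0236800 averaged 108 and 183. Most opposed were Os06g0523100 (-0.94), at 931 in ASM and 532 in PA1x, and Os02g0749500 (-0.93), at 778 and 478. The files do not pair these identifiers with names, and the correlations are given as a description.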

How the data were processed

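Root RNA of 15 samples (5 groups of 3) was sequenced with QuantSeq from 2 µg of RNA, per the labels' protocols. The submitters' processing notes list the tools STAR 2.6.1d, Trimmomatic 0.38, FastQC 0.11.8 and DESeq2. For genome build, annotation, counting tool and strand: not given in the sources used here.

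The deposited signal is 1 normalised value per feature and library. In every library all values were whole multiples of 1 step within a tolerance of 0.1, so each is a read count divided by a size factor, and the reads were recovered by dividing by the step. Sums of these reads were 4130194 to 9480830 per library and size factors 0.620 to 1.53. Low counts limit precision mainly for PIP2-5.

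Values were tested with limma 3.58.1 with trend (R 4.3.3) on log2(value + 1), which understates changes of low genes. Features with a mean of at least 5 entered 1 fit of all libraries, with the 10 pairs of groups as contrasts, a moderated F test over groups, two-sided tests, Benjamini-Hochberg adjustment over all 18316 features and a threshold of 0.05. Intervals are 95% confidence intervals of the fit. Other settings were a pseudocount of 0.5 or 5, no filter or a mean of at least 20, the compared libraries alone, a replicate block, equal totals, TMM scaling, edgeR 4.0.16 and DESeq2 1.42.0 on the recovered reads, and leaving out each library. The scripts were tested on simulated data.

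The 10 genes, the 23 other aquaporin genes and the markers were chosen with earlier results of these data known. Other aquaporin genes are named where they passed in any comparison or had 1 of the 5 highest means of their list, and the features most like the 10 genes were ranked by Pearson correlation among those with a mean of at least 20 outside the aquaporin lists. The files give identifiers only. Names are from general knowledge. All 10 genes had a namesake in the RefSeq gene table (assembly ASM3414082v1) on the same chromosome and in matching order, as did 19 of the 23 others for the chromosome. No sequence is shown, and no coordinates are given because the builds could not be matched.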

Additional observations from a re-analysis of the deposited data

How the results depend on the processing

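With 3 pools a group the intervals are wide, and a difference that did not pass is not shown to be absent. Doses and schedules differ between compounds. Counts are of the 10 genes, by the tests named above. Between PA1x and ASM the count of 6 was the same at every setting other than leaving out a library, where it was 4 to 6, with 5 without ASM replicate 3 and 4 without PA1x replicate 3. Between PA2x and PA1x the count of 1 went to 0 with no filter on low values, to 5 with equal totals and to 0 without mock 2 and PA1x 2 together, a setting chosen after seeing the data because those libraries had the most shoot marker reads. Leaving out 1 library gave 0 to 3, with 3 without PA2x replicate 3. Between PA2x and ASM the count of 2 went to 1 with no filter and to 0 in a fit of the compared libraries, and to 0 to 2 without 1 library. The count of 0 went up for ASM against mock, to 1 with a mean of at least 20 and to 2 by DESeq2 (0 to 2 without 1 library, with 2 without ASM replicate 1 and 1 without PA2x replicate 2). For PA1x against mock it went to 1 with equal totals and to 1 by DESeq2 (0 to 1, with 1 without mock replicate 3). For PA1x against BABA it went to 1 with a mean of at least 20 and to 2 with the compared libraries alone, equal totals or DESeq2 (0 to 1, with 1 without ASM replicate 1 or PA2x replicate 3). For ASM against BABA it went to 2 by DESeq2 (0 to 2, with 2 without ASM replicate 1). BABA against mock, PA2x against mock and PA2x against BABA stayed at 0 at every setting run. The 5 genes of the F test became 2 with no filter, 2 without mock 2 and PA1x 2, 4 with TMM scaling, 6 with equal totals, 6 by DESeq2 and 1 to 6 without 1 library. By edgeR they were again 5, with PIP2-3 (0.0499) in place of PIP2-1, and without PA2x replicate 3 the 6 held PIP1-3 and PIP2-3 but not PIP2-1. The cause was not tested.

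Equal totals turned PIP1-2 in PA1x against mock to 0.045 and TIP2-1 in PA2x against PA1x to -0.065 (log2). Over the fits that each leave out 1 library, values near 0 changed sign. In BABA against mock, PIP2-2 ran from -0.13 to 0.0036, PIP2-3 from -0.13 to 0.0013 and TIP2-1 from -0.17 to 0.13. In ASM against mock, PIP2-5 ran from -0.26 to 0.36. In PA1x against mock, PIP1-2 ran from -0.15 to 0.018 and PIP2-1 from -0.011 to 0.10. In PA2x against mock, PIP2-3 ran from -0.18 to 0.0060 and TIP2-1 from -0.23 to 0.071. In PA2x against PA1x, TIP2-1 ran from -0.029 to 0.25 and TIP2-2 from -0.16 to 0.0047.

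With a replicate block the F test called 4 of the 10 genes, PA1x against ASM 6, PA2x against ASM 2, PA2x against PA1x 1 and each other comparison 0. The replicate numbers are not shown to pair the samples. Of pairs of libraries from different groups with the same number, 9 of 30 had a correlation of deviations over 0.1 (median 0.056, range -0.34 to 0.40). Of pairs with different numbers, 16 of 60 did (median -0.0092, range -0.37 to 0.33). Of the 15 libraries, 8 correlated best with a library of their own number. Some libraries did share deviations across groups. Replicates 3 of mock, BABA, PA1x and PA2x correlated with each other at 0.23 to 0.40. With these libraries ASM replicate 3 was at -0.34 to -0.25 and ASM replicate 1 at 0.23 to 0.32, so a block by number does not capture this likeness. Its source was not tested.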
